A study of Mus musculus with 2 samples.

Results

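The 45 genes described here encode the proteins that license replication origins and run the replication fork. They comprise the origin recognition complex, the loading factors Cdc6 and Cdt1 with their inhibitor geminin, the MCM helicase and its activators, the sliding clamp and its loader, RPA, the replicative polymerases and primase, the enzymes that finish Okazaki fragments, chromatin assembly factor 1, the histone mRNA binding protein, and cyclin E with CDK2. A gene was a member when a non-control spot carried its symbol, and its value was taken from the probe with the highest mean processed signal; cyclins D, E2F factors and nucleotide synthesis genes were left out. All 45 were found among 27370 gene names on the array, and all 45 were well above background on both arrays.

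RNA came from leukemia-initiating cells, which are those able to start a leukaemia anew in another mouse. The cells of both groups carried the MLL-AF9 fusion with a YFP reporter, came from bone marrow of female mice with acute myeloid leukaemia, and were sorted as YFP+, Mac-1+ and c-Kit+. One group was Jam3-null and the other was Jam3-WT. Jam3 encodes a junctional adhesion molecule of the cell surface. Each group was 1 one-colour Agilent array, whose label names 3 mice. The age of the mice, how Jam3 was removed, and whether the RNA was pooled in equal parts are not given in the sources used here.

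With 1 array per genotype there is no replicate check, no test across samples was possible and no p-value is given. A difference is the log2 processed signal of the Jam3-null array less that of the WT array, once each was scaled to its 75th percentile of processed signal, so a negative value means a lower signal on the Jam3-null array. The SD beside a difference is that of the scanner's error model. It was 0.20 to 0.22 for 44 members and 0.06 for Pcna, whose probe was printed in 10 spots, and it covers measurement error only, not the spread between mice or leukaemias. In a sorted population, fewer cells in S phase and less of a transcript in each cell cannot be told apart.

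Of the non-control spots, the share above background came to 55.0% (Jam3-null) and 61.8% (WT), and 0 were saturated. Jam3 itself was read by 2 probes, 0 of which were well above background, so it did not check the labels. The sort markers Itgam, which encodes the Mac-1 chain, and Kit were above background on both arrays, with log2 differences of 3.71 and 0.09. The leukaemia genes Hoxa9 and Meis1 were at 0.73 and 0.81, while Mef2c of the same list was lower, at -0.71. Ptprc, also of that list, was at 0.61. Of 15 neutrophil maturation markers 14 were on the array, and all 14 were above background on both arrays. Beside 10.3% of all genes measured on both arrays, all 14 were at least 2-fold higher on the Jam3-null array. Their summed processed signal was 1235256 there and 198911 on the WT array. Of 8 lymphoid, 8 erythroid and 8 macrophage markers, 5, 4 and 6 were above background on both arrays. Their summed signals were 23108 and 15964 (lymphoid), 3155 and 1599 (erythroid), and 7246 and 4814 (macrophage) on the Jam3-null and WT arrays. Cd79a and Cd8a were above background on neither array. Most of the lymphoid sum came from Nkg7 and Cd79b, while Cd3e and Cd3g were between 32.3 and 74.1 on both arrays. Of the 6 measured macrophage markers, 4 were higher on the Jam3-null array, among them Vcam1 with 3142 (Jam3-null) and 127 (WT). The 2 lower ones were Cd68, with 1975 and 3903, and Cd163, with 30.9 and 91.6. The neutrophil markers differed by a median of 3.83 beside every result given here, and their part in the replication genes' differences was not tested.

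Replication begins in G1, when the origin recognition complex, Cdc6 and Cdt1 load the MCM2-7 ring onto DNA as an inactive helicase. At the start of S phase, CDK2 with cyclin E and the kinase CDC7 turn that ring into an active helicase by adding CDC45 and GINS, after which primase, the polymerases, the clamp and RPA build the fork. Many of these genes are textbook targets of E2F transcription factors and are transcribed around the G1-S boundary, and rapidly dividing leukaemia cells usually express them at high levels.

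All levels that follow are processed signals. Most of the replication genes were lower on the Jam3-null array, by amounts that ranged from little to 2.36-fold, and 6 were higher: Slbp, Orc4, Gins3, Ccne1, Ccne2 and Cdk2. Of 45 genes, 39 had a lower signal on the Jam3-null array, where 55.3% of the 14351 genes measured on both arrays did. Their median log2 difference was -0.50 (quartiles -0.74 and -0.27), which is a 1.42-fold lower signal, and the median of all measured genes was -0.08. By more than 1.96 error-model SD, 27 of 45 were lower and 1, Cdk2, was higher; for all genes these shares were 28.4% and 23.2%. At least 1.5-fold, 17 of 45 were lower, beside 20.4% of all genes, and 0 were higher, beside 18.4%. Large differences were no more common than elsewhere: 4 of 45 were at least 2-fold lower, where 8.65% of all genes were, and 0 were at least 2-fold higher, where 10.3% were. The 4 were Gins2, Pold2, Orc5 and Pola1.

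Replication transcripts were bright on this array, and bright genes leaned lower. In the brightest of 4 equal groups of genes by mean signal, 64.6% of all genes were lower and the median was -0.19. That group held 29 of the 45 members, of which 27 were lower, with a median of -0.50. Within the brightest group, the median of these 29 members therefore lay below that of all its genes. Brightness was not matched more closely inside the group, and the members outside it were not set against their own groups.

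**Figure D1:**
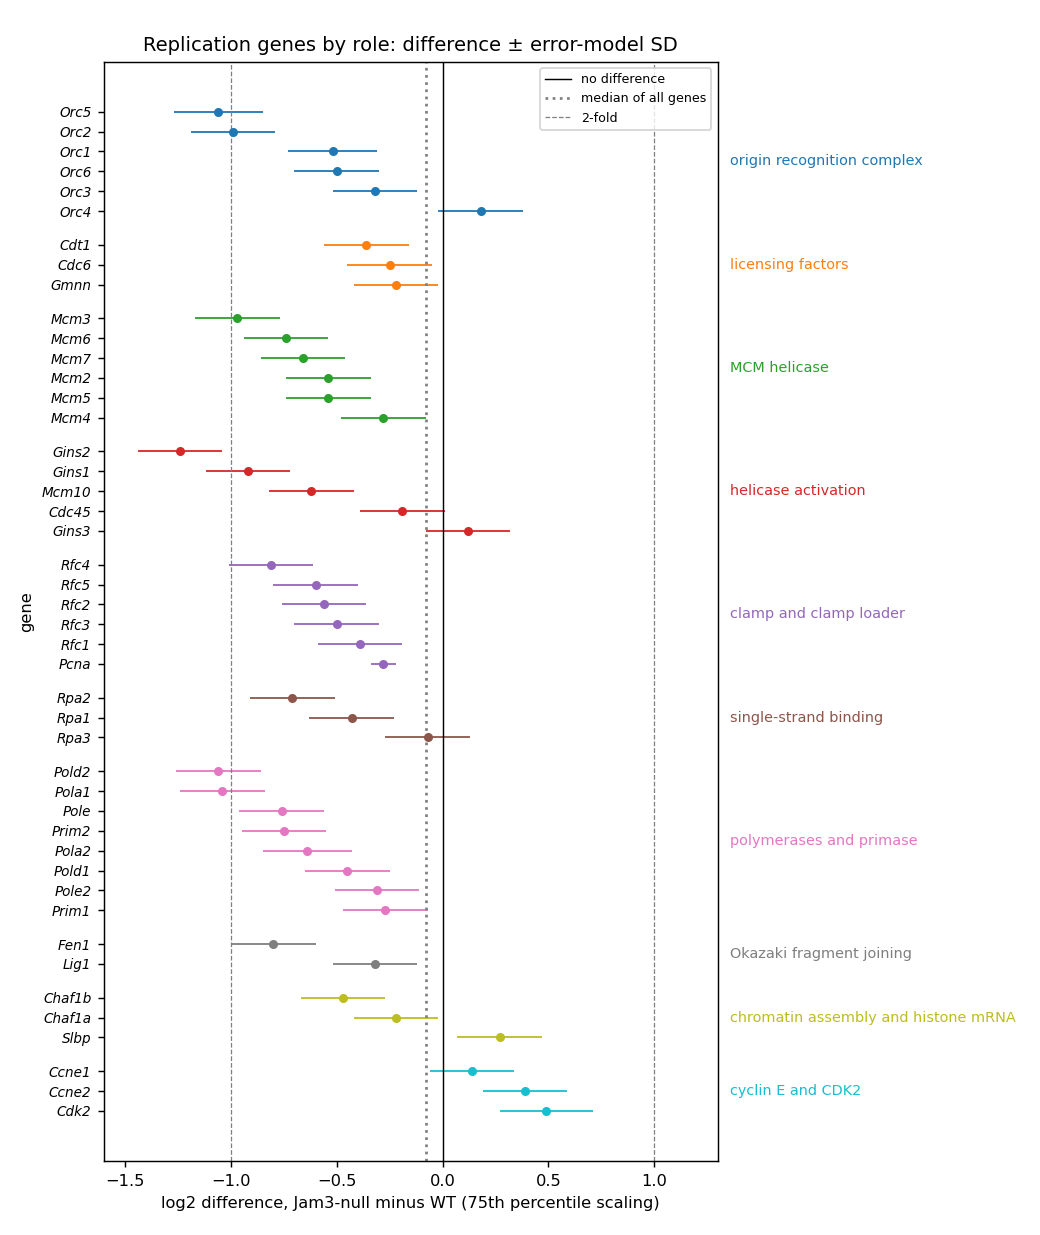
The horizontal axis is the log2 difference of each of the 45 replication genes, Jam3-null minus WT; points are values from 1 array per genotype, bars are 1 error-model SD, and colours are roles. The points of 39 genes lie left of 0, Gins2 is farthest left at -1.24, and Slbp, Orc4, Gins3, Ccne1, Ccne2 and Cdk2 lie right of it.

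The MCM helicase genes, which encode the 6 subunits of the ring that unwinds DNA, were all lower on the Jam3-null array. Mcm3 had signals of 23084 (Jam3-null) and 48229 (WT), a log2 difference of -0.97. Mcm6, the brightest member, had 73161 and 130612 (-0.74). Mcm7 had 29799 and 50186 (-0.66). In each of these genes the Jam3-null array held between 51.1% and 63.4% of the scaled WT signal. Mcm2 followed with signals of 5827 and 9066 (-0.54) and Mcm5 with 23254 and 36069 (-0.54). Mcm4 had 23238 and 30109 (-0.28), within 1.96 error-model SD of 0. The 6 subunits work in equal numbers in 1 ring. The gap between the lowest and the highest of them, Mcm3 and Mcm4, was 0.69 in size (combined error-model SD 0.29), and that between Mcm6 and Mcm4 was 0.46, within 1.96 SD. Partners within a complex, here and in the other roles, were paired after their values were seen, so their gaps are descriptions; of 18 such pairs, 9 were apart by more than 1.96 combined SD. The median of the 6 was -0.60. Both Mcm3 probes were lower (-0.97 and -0.78). The probes of Mcm6 and Mcm3 lie on chromosome 1 at 130228178 to 130228237 and 20793119 to 20793178 (mm9, as the array files give them); whether they fall in coding sequence or a UTR is not given in the files.

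E2F letters recur in the promoters of these genes, and to show them the 250 bases before the Mcm6 start and short windows of 7 other members are printed here, 5′ to 3′ on the gene's strand, from RefSeq (GRCm38.p6). Capitals mark the E2F letters TTTCCCGC, TTTCGCGC, TTTGCCGC or TTTGGCGC on either strand and, in Mcm6 only, CCAAT on either strand. A run of 12 capitals holds a match on each strand that overlap each other. For the others, 30 bases round a match are shown.
Mcm6, chr1:128359706-128359955 (-): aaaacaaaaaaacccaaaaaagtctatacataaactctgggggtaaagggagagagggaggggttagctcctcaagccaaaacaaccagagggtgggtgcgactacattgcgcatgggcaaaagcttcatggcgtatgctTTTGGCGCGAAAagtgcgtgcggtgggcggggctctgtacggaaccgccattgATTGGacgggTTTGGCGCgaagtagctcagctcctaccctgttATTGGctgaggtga
Mcm5, chr8:75109347-75109376 (+): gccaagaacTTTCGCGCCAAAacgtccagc
Mcm7, chr5:138172030-138172059 (-): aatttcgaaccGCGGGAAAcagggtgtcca
Orc1, chr4:108579416-108579445 (+): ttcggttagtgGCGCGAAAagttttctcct
Cdc6, chr11:98908002-98908031 (+): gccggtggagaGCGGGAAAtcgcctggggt
Pola1, chrX:93632275-93632304 (-): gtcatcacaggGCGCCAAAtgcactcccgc
Gins3, chr8:95633507-95633536 (+): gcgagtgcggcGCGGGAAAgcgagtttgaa
Cdk2, chr10:128705173-128705202 (-): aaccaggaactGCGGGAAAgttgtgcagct

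Of the 45 members, 37 had a promoter window in the RefSeq table, which runs from 250 bases before to 50 bases after a start. The E2F letters were in 15 of the 37 (40.5%), and in 2.60% of the 27025 genes of the table; counted by window, 33.3% of the members' 45 windows held them and 2.26% of all 32851 did. CCAAT was in 24 of the 37 (64.9%) and in 41.1% of all genes, or by window in 57.8% and 37.4%. The letters did not sort the members by their difference on these arrays. The 15 genes with E2F letters had a median of -0.45 and 13 of them were lower, and the 22 without had a median of -0.48 and 19 were lower. Pola1 at -1.04 and Cdk2 at 0.49, at opposite ends of the members, both had a match. A match is a run of letters, not a measured binding site.

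The origin recognition complex marks the sites where helicases are loaded, and 5 of its 6 genes were lower on the Jam3-null array. Orc5 had signals of 233 (Jam3-null) and 519 (WT) (log2 difference -1.06, SD 0.21). Orc2 had 1352 and 2860 (-0.99). Orc4 had 1116 and 1053 (0.18), the only gene of the complex that was not lower. Orc5 was lower than Orc4 by a further 1.24 in log2 (combined SD 0.29), and Orc2 than Orc4 by 1.17. Orc1, the largest subunit, had 173 and 266 (-0.52). Orc6 had 9682 and 14652 (-0.50). Orc3 had 1895 and 2530 (-0.32), and all 3 of its measured probes were lower. Of the 3 measured probes of Orc4, the brighter ones were at 0.18 and 0.20 and the dimmest at -0.24, so its sign depended on the probe. Of the Orc5 probes, 1 did not clear background on both arrays, so the value rests on the other, on chromosome 5 at 21992937 to 21992996 (mm9).

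Among the roles in which every gene was lower, the loading factors and their inhibitor had the median nearest to 0, -0.25. Cdt1, which brings the MCM ring to the origin, had signals of 25404 (Jam3-null) and 34869 (WT) (log2 difference -0.36). Cdc6, the ATPase that loads the ring with it, had 1835 and 2329 (-0.25). Gmnn encodes geminin, which binds Cdt1 after S phase has begun and prevents a second round of loading, and it had 26300 and 32680 (-0.22). All 3 were lower, and none was lower by more than 1.96 error-model SD. The second Cdc6 probe was at 0.12, and Gmnn was at 0.01 with cyclic loess scaling, so neither gene kept its sign under every processing. Cdt1 and its inhibitor differed from each other by 0.14, less than the combined SD of 0.29.

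The activators that turn the loaded ring into a working helicase held both the largest difference of the set and genes with little difference. Gins2, a subunit of the GINS complex, had signals of 1120 (Jam3-null) and 2823 (WT), which is 2.36-fold lower (log2 difference -1.24). Gins1 had 4896 and 9924 (-0.92), and its second probe, which reads another part of the gene, was at -1.25. Gins3 of the same complex had 948 and 935 (0.12). Gins2 was thus lower than Gins3 by a further 1.35 (combined SD 0.29), and this gap lay between -1.35 and -1.30 under all processing alternatives. Cdc45, which joins GINS and the ring in the active helicase, had 1197 and 1454 (-0.19), within 1.96 SD of 0. Mcm10, which helps the helicase leave the origin, had 7371 and 12102 (-0.62). The Gins2 probe lies on chromosome 8 at 123112627 to 123112686 (mm9).

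**Figure D2:**
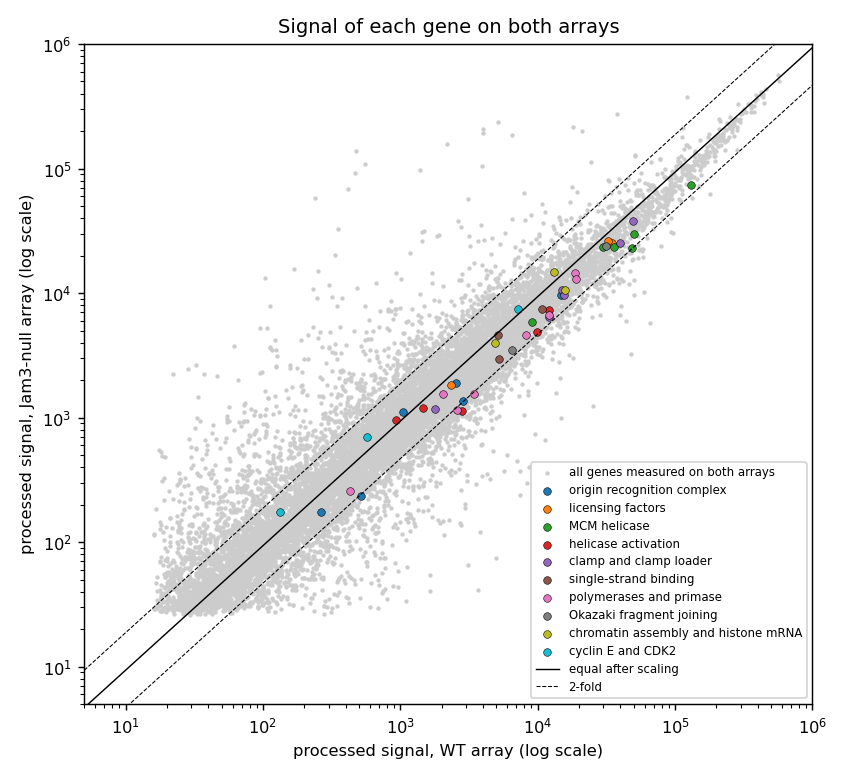
Each point is a gene, placed by its processed signal on the WT array (horizontal) and on the Jam3-null array (vertical), both on log scales; grey points are the 14351 genes measured on both arrays and coloured points the 45 replication genes by role. The solid line marks equal signal after scaling and the dashed lines 2-fold; 39 of the coloured points lie below the solid line, 4 of them (Gins2, Pold2, Orc5 and Pola1) beyond 2-fold, Mcm6 is at the upper right, and Slbp, Orc4, Gins3, Ccne1, Ccne2 and Cdk2 lie above the solid line.

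The clamp and its loader were lower throughout. Pcna encodes the ring that holds polymerases on DNA, and its 10 spots gave mean processed signals of 38200 (Jam3-null) and 49479 (WT) (log2 difference -0.28, SD 0.06). The 5 subunits of replication factor C, which opens the ring and places it on DNA, were all lower. Rfc4 had 6402 and 12002 (-0.81), Rfc5 had 9657 and 15599 (-0.60), and Rfc2 had 25082 and 39507 (-0.56), with its second probe at -0.64. Rfc3 had 1182 and 1791 (-0.50). Rfc1, the large subunit, had 10623 and 14895 (-0.39). Pcna, with the smallest SD, was the gene of this group nearest to 0, and cyclic loess scaling brought it to -0.03.

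Replication protein A coats the exposed single strand as a complex of 3 subunits, and their genes were lower by unequal amounts. Rpa2 had signals of 2966 (Jam3-null) and 5189 (WT) (log2 difference -0.71), and its second probe was at -0.81. Rpa1, the large subunit, had 7493 and 10772 (-0.43). Rpa3, the small subunit, had 4583 and 5141 (-0.07). Rpa2 was lower than Rpa3 by a further 0.64 (combined SD 0.29), and Rpa3 was above 0 under 2 of 10 alternatives.

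The polymerase and primase genes had the lowest median of the roles with over 2 genes, -0.70, and all 8 were lower. Pola1, the catalytic subunit of the polymerase that extends RNA primers, had signals of 1557 (Jam3-null) and 3426 (WT) (log2 difference -1.04). Pold2, an accessory subunit of the lagging-strand polymerase delta, had 1151 and 2568 (-1.06). Both were just past 2-fold. The catalytic subunit gene Pold1 had 12930 and 18913 (-0.45), with a second probe at -0.37, and Pold2 was lower than it by a further 0.61 (combined SD 0.29). Pole, the catalytic subunit of the leading-strand polymerase epsilon, had 6613 and 12001 (-0.76), and its partner Pole2 had 1545 and 2044 (-0.31). Prim2, the large primase subunit, had 4579 and 8222 (-0.75), and Prim1, which makes the primer, had 14483 and 18688 (-0.27). The gaps within these last pairs, 0.46 and 0.48 in size, were within 1.96 combined SD. Pola2 had 259 and 433 (-0.64) at its brightest probe and 116 and 89.8 (0.46) at the next, which is the widest disagreement between probes of any member. The Pola1 probe lies on chromosome X at 90550189 to 90550248 and the Pold2 probe on chromosome 11 at 5773086 to 5773145 (mm9).

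The enzymes that finish Okazaki fragments were both lower. Fen1, the nuclease that trims the displaced flap, had signals of 3509 (Jam3-null) and 6510 (WT) (log2 difference -0.80). Lig1, the ligase that seals the nick, had 23804 and 31659 (-0.32). Only Fen1 was lower by more than 1.96 error-model SD.

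Chromatin assembly and histone mRNA genes went both ways. Chaf1b, the middle subunit of chromatin assembly factor 1, which places new histones behind the fork, had 10583 (Jam3-null) and 15712 (WT) (log2 difference -0.47), and the large subunit gene Chaf1a had 3941 and 4913 (-0.22). Slbp, which binds the stem-loop of replication-dependent histone mRNAs, had 14776 and 13099 (0.27). The Slbp value was higher on the Jam3-null array but within 1.96 SD of 0.

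Cyclin E and CDK2 form the kinase that starts S phase, and they were the only role in which no gene was lower. Cdk2 had signals of 175 (Jam3-null) and 133 (WT), 1.40-fold higher (log2 difference 0.49, SD 0.22), with its second probe at 0.32. Ccne2, which encodes cyclin E2, had 703 and 575 (0.39), with its second probe at 0.49. Ccne1, which encodes cyclin E1, had 7469 and 7228 (0.14) at its brighter probe and 346 and 413 (-0.16) at the other. The array files give both Ccne1 probes the same coordinates, chromosome 7, 38882937 to 38882960 (mm9), although their sequences differ. Cdk2 and Ccne2 were higher under each of the 10 alternatives, and Ccne1 was lower under 2 of them. The size of the Cdk2 difference ranged from 0.32 to 0.57, and under 6 alternatives (normexp, quantile, spike-in, the authors' value table, the mean of its probes and the next probe) it was within 1.96 times the SD of 0.22. No test of the difference between this role and the other members was possible. Cdk2 is among the dim members, with a mean signal in the lowest of the 4 groups by brightness. Without these 3 genes, 39 of the remaining 42 members were lower and the median was -0.51.

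**Figure D3:**
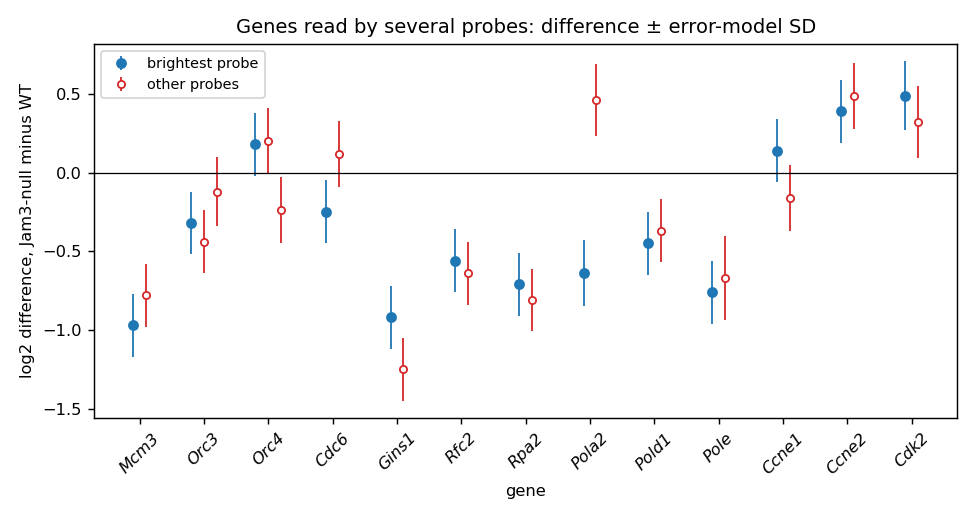
The vertical axis is the log2 difference, Jam3-null minus WT, of every probe well above background on both arrays for the 13 members read by several such probes; bars are 1 error-model SD, filled points the brightest probe and open points the others. In 7 genes all probes are below 0, in Ccne2 and Cdk2 all are above it, and in Orc4, Cdc6, Pola2 and Ccne1 they lie on both sides.

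The array carried 65 probes for the 45 members, of which 60 were well above background on both arrays, and 49 of these 60 were lower on the Jam3-null array. Counted by gene and not by probe, 55.3% of all those measured on both arrays were lower. Measured probes of 1 gene differed by a median of 0.19 in log2, about the size of the error-model SD, and by up to 1.11 in Pola2. The members read by 1 probe only, among them Gins2, Orc2, Pold2 and Pola1, have no such check.

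Most other genes of the replication pathway were lower as well, with a median nearer to 0. Of 48 such genes chosen from knowledge of the pathway, all were measured on both arrays and 38 were lower (median -0.29), beside 55.3% of all genes. By more than 1.96 SD, 19 were lower, beside 28.4% of all genes, and 5 were higher, beside 23.2%. At least 2-fold lower were 2, beside 8.65% of all genes, and 0 were at least 2-fold higher, beside 10.3%. The 2 were Poldip2, a partner of polymerase delta, with signals of 1938 (Jam3-null) and 4313 (WT) (log2 difference -1.06), and Pole3, a histone-fold subunit of polymerase epsilon, with 7551 and 16540 (-1.04). Named after their values were seen, Gins4, which completes the GINS complex with Gins1, Gins2 and Gins3, was at -0.48. The highest of the list was Asf1b, a histone chaperone, with 19309 and 10795 (0.93). Cdc7, the kinase that activates the loaded ring, was at 0.46, and its activator Dbf4 was at -0.16. Ticrr, which with CDK brings the activators to the ring, was at 0.79. E2F letters were in 12 of the 40 promoters found for this list.

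Mitosis genes, which are transcribed later in the cycle, had a median near 0. Of 36 genes measured, 15 were lower, beside 55.3% of all genes, 21 were higher, and the median was 0.06. A 2-fold difference was reached by 0 of the 36 in either direction, while 8.65% of all genes reached it downward and 10.3% upward. Beyond 1.96 error-model SD, 5 were lower and 6 higher, where the shares of all genes were 28.4% and 23.2%. Mki67, a marker of dividing cells, had 44058 (Jam3-null) and 30309 (WT) (log2 difference 0.63). Mad2l1, a spindle checkpoint gene, had 1441 and 2622 (-0.77), and the centrosome kinase gene Nek2 had 1120 and 1911 (-0.68). The median of the replication genes lay 0.56 below that of the mitosis genes. Because this gap is between genes on the same arrays, dividing each array by another single factor does not alter it; it ranged from -0.56 to -0.50 over the alternatives. The gap has no replicate check. E2F letters were in 1 of the 30 promoters found for the mitosis list (3.33%), beside 2.60% of all genes. CCAAT was in 22 of the 30 (73.3%), beside 41.1% of all genes.

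**Figure D4:**
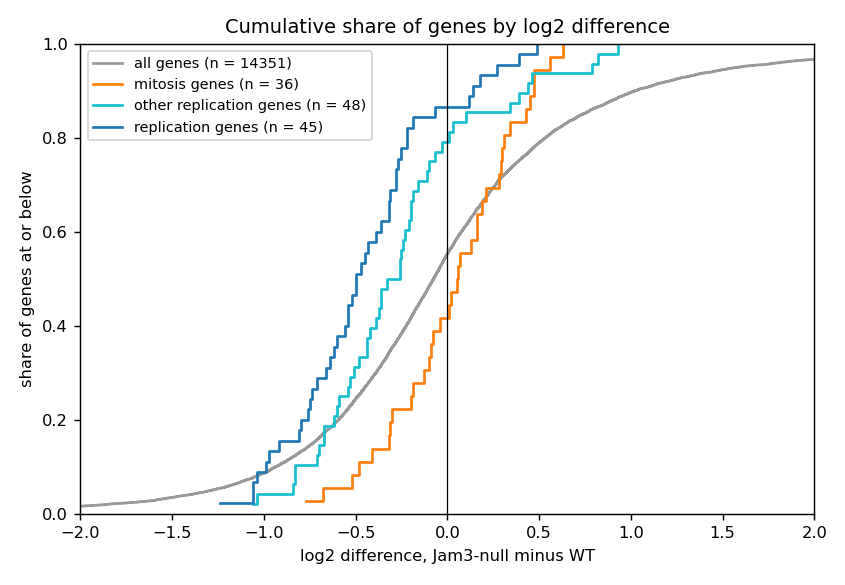
The vertical axis is the share of genes with a log2 difference (Jam3-null minus WT, horizontal axis, drawn from -2 to 2) at or below each value, for the 45 replication genes, 48 other replication genes, 36 mitosis genes and 14351 genes in all. The replication genes' line lies left of the line for all genes over most of the range and crosses 0 with 39 of 45 genes below it, while the mitosis line crosses 0 with 15 of 36 below it.

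The members' median stayed below 0 and below that of all genes under every processing tried, and its size varied. The members' median ranged from -0.59 with spike-in scaling to -0.31 with cyclic loess, and the median of all genes was -0.16 and 0.06 under these. With no filter on dim probes the median of all genes was 0.14 and that of the members stayed at -0.50, and with quantile normalization they were -0.05 and -0.36. Set against all genes, the members' median was lower by 0.43 with the reported scaling and by between 0.31 and 0.65 under the alternatives. All 6 MCM2-7 genes were lower under each alternative, though Mcm4 came to -0.04 with quantile normalization and -0.06 with cyclic loess. Of the 45 members, 35 were lower under every alternative and 5 higher under every one. The other 5, Cdc6, Gmnn, Rpa3, Pola2 and Ccne1, changed sign under 1 or 2. Alternatives on dim probes could not change a member's sign, and those on probe choice could only where several probes were measured.

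**Figure D5:**
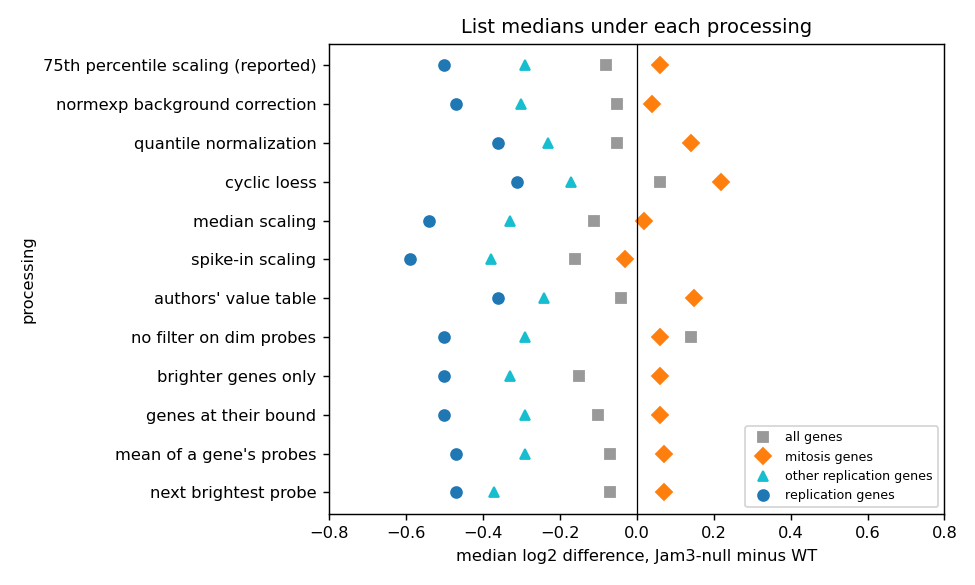
The horizontal axis is the median log2 difference, Jam3-null minus WT, of the 45 replication genes, the other replication genes, the mitosis genes and all genes, and each row is 1 way of processing the arrays. In every row the replication genes' median is farthest left, between -0.59 and -0.31, and the mitosis genes' median lies between -0.03 and 0.22.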

How the data were processed

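The members and gene lists were chosen with earlier results of these data known. The scanner files hold spot intensities that were deposited on a linear scale and written, per the file headers, by version 10.7.3.1 of Agilent's Feature Extraction (10.7 in the submitters' processing notes): background-subtracted, detrended within each array and not normalized between arrays. The deposited error of each intensity gave the error-model SD. Both arrays share 1 slide and scan. Flagged spots were left out (151 Jam3-null, 163 WT of 43379), log2 processed signals were scaled to the 75th percentile (672.2 and 718.1), spots of a probe were averaged, and the brightest probe stood for a gene. The named genes were all 45 members, other replication genes at least 2-fold apart, the 3 mitosis genes farthest from 0, and markers; Gins4, Asf1b, Cdc7, Dbf4 and Ticrr were named outside this rule, after their values were seen. The authors' deposited value table holds log2 values (median 5.66 in both columns, r = 0.999 with log2 signals over probes on each array); how it was normalized is unstated, and it served as an alternative. Other alternatives were normexp correction (offset 50), quantile, cyclic loess, median and spike-in scaling (8 E1A probes, median log2 difference 0.087 after the main scaling), filters on dim probes, probe choice and fold thresholds of 1.5 and 3. The gene step was checked on simulated data. Signal over background and the number of arrays limit the precision. Python 3.11.15 was used with pandas 2.3.3, numpy 2.4.6 and matplotlib 3.10.9, and limma 3.58.1 in R 4.3.3.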

Additional observations from a re-analysis of the deposited data

How the results depend on the processing

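Of 450 single-gene values under an alternative, 426 moved by less than the gene's error-model SD. Many of the 450 could not move. All 45 members were measured on both arrays, so the alternatives on dim probes returned their reported values. Only 13 members had 2 or more measured probes, and the alternatives on probe choice could move only those. Of the 4 genes at least 2-fold lower, 0 changed sign, but each had 1 measured probe, so probe choice could not test them. The medians of the replication and mitosis genes moved by less than 0.20 under each alternative. The number of replication genes lower by any amount, a count chosen after the data were examined, was between 37 and 40 with all 45 kept and 36 of 39 among brighter genes. Of all genes, between 44.2% (no filter on dim probes) and 60.6% (spike-in scaling) were lower where all 45 were kept, and 60.6% among brighter genes. Counts at a fold threshold moved more. At least 2-fold lower were 4 replication genes (8.65% of all genes), but 2 with cyclic loess (6.90% of all genes), 2 in the authors' value table (8.15%) and 7 with spike-in scaling (10.5%), and 17 at 1.5-fold (20.4%) and 0 at 3-fold. Of the 48 other replication genes 2 were at least 2-fold lower (8.65% of all genes). The count was 1 with quantile normalization (8.33%), 0 with cyclic loess (6.90%) and 0 in the authors' value table (8.15%). It was 1 with the mean of a gene's probes (8.28%) and 1 with the next brightest probe (8.74%), the last chosen after the data were examined. At least 2-fold higher were 0 of them, but 1 with quantile normalization, cyclic loess, the authors' value table and the mean of a gene's probes. Genes near 2-fold (Orc2 -0.99, Mcm3 -0.97, Gins1 -0.92) sit at that edge; the cause of each move was not tested. No replicate could be left out with 1 array per genotype. No paired analysis was possible because each genotype had 1 array. Dim members such as Cdk2 and Orc1 have the least signal over background.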
